A study of Drosophila melanogaster with 72 samples.

Results

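Cytochrome P450 genes were followed in whole-brain RNA of Drosophila melanogaster. Of 13898 genes listed, 82 had a symbol of the P450 form, and 48 of these averaged at least 1 CPM (a read count scaled to its library's total) over the 72 libraries. These 48 genes are described here, and the other 34 were set aside as too low. The gene just inside was Cyp4ac1 at 1.02 CPM, and the genes just outside were Cyp6a22 and Cyp6a8 at 0.85 CPM. Of the 34, 13 reached a mean of 1 CPM in at least 1 group, the highest being Cyp4e3 at 4.59 CPM in brains of the R60F09 line kept at 21 °C.

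The 72 libraries fell into 24 groups of 3, and 15 brains were pooled for each library. Flies of the iso31 strain made up 9 groups. For 6 of these, flies were held at 25 °C in a light and dark cycle and brains were taken with no disturbance at zeitgeber time (ZT, hours after lights on) 0, 4, 8, 12, 16 or 20, and for 3, at ZT0 after a vortexer had shaken the flies, 2 s in every 20 s at random, for 3, 6 or 12 h, at a temperature not given in the sources used here. A further 15 groups represented 5 GAL4 lines, in which a yeast transcription factor switches on a transgene in chosen neurons. In each line a group with GAL4 and the heat-gated cation channel UAS-TrpA1 was moved to 29 °C (TrpA1 29C), a group of that genotype was kept at 21 °C (TrpA1 21C), and a group with GAL4 but no UAS-TrpA1 was moved to 29 °C (GAL4 control 29C). In the submitters' protocol the driver lines R21H11, R65H02, R60F09 and HC (hot cell) promote wakefulness, and their flies were warmed for the last 3 h of the night before dissection at ZT0. The protocol has R85C10 promote sleep, while its sample titles speak of deprivation, and those flies were warmed through the 12 h of day until lights off. All these groups carry GAL4. The TrpA1 groups carry UAS-TrpA1 at either temperature, and no group has the channel transgene without GAL4. Age and sex are not given in the sources used here, and nothing there says that replicate pools came from separate crosses, so p-values measure the spread between these pools.

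P450 enzymes are haem monooxygenases. They insert oxygen into steroids, fatty acids, plant compounds and insecticides. Most sit in the endoplasmic reticulum and draw electrons from Cpr, the P450 reductase, while the mitochondrial clan draws them from a ferredoxin and its reductase, which the gene dare encodes. In flies the large CYP3 clan holds many genes tied to detoxification, the CYP4 clan acts largely on fatty acids and hydrocarbons, and several members of the CYP2 and mitochondrial clans make or inactivate ecdysteroid hormones.

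Total counts ran from 4175587 to 13435817 per library, with a median of 8437310. The mitochondrial genome took 1.68% to 9.17% of counts. RNA of tissue next to the brain varied between pools: the summed level of 6 fat body markers ran from 69.7 to 4010 TPM (a share of all transcripts, corrected for gene length), that of 5 photoreceptor markers from 12.9 to 7648 TPM and that of 5 muscle markers from 7.22 to 260 TPM. The 5 neuron markers summed to 1331 to 4384 TPM. In bulk RNA, fewer cells of a type and less RNA per cell cannot be told apart. TrpA1 RNA, the check on the channel, was higher in the TrpA1 groups than in the GAL4 control of R85C10, R65H02, R21H11 and R60F09. In HC it averaged 26.6 ± 2.06 CPM (SD, n = 3) in TrpA1 29C, 13.8 ± 1.95 CPM in TrpA1 21C and 11.4 ± 2.14 CPM in the GAL4 control, so the HC group labelled TrpA1 21C lay close to its control. The eye-colour gene w, which marks many transgenes, was at 18.5 ± 2.60 CPM in that group, 17.2 ± 1.76 CPM in TrpA1 29C and 3.68 ± 0.909 CPM in the GAL4 control.

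By clan, 26 of the 48 genes belonged to CYP3, 12 to CYP4, 7 to the mitochondrial clan and 3 to CYP2. A few genes held most of the P450 RNA. On the TPM scale, Cyp28d1 averaged 555 TPM over all libraries, Cyp28a5 156 TPM, Cyp9f2 154 TPM, Cyp4g15 102 TPM, Cyp12a4 51.1 TPM and Cyp12b2 39.6 TPM. These 6 genes made up 72.5% of the summed level of the 48. Cyp28d1, Cyp28a5 and Cyp9f2 belong to the CYP3 clan, and Cyp28d1 has been tied to nicotine resistance. Cyp4g15 is the nervous-system relative of Cyp4g1, the hydrocarbon-forming enzyme of the fly's oenocytes. Cyp12a4, which confers lufenuron resistance when overexpressed, and Cyp12b2 are mitochondrial. The group mean of Cyp28d1 ranged from 358 ± 29.2 TPM in HC TrpA1 21C to 739 ± 42.7 TPM in R85C10 TrpA1 29C (SD, n = 3), and that of Cyp4g15 from 73.9 ± 5.06 TPM after 6 h of shaking to 137 ± 14.8 TPM at ZT4. These extremes depend on the scale. In CPM the highest group for Cyp28d1 was R65H02 TrpA1 29C, at 623.7 CPM, and the lowest for Cyp4g15 was HC TrpA1 29C, at 91.77 CPM. After 6 h of shaking Cyp4g15 did not differ past the threshold from ZT0 (edgeR, adjusted p = 0.182). The 48 genes together summed to 1140 to 1868 TPM per library.

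**Figure D1:**
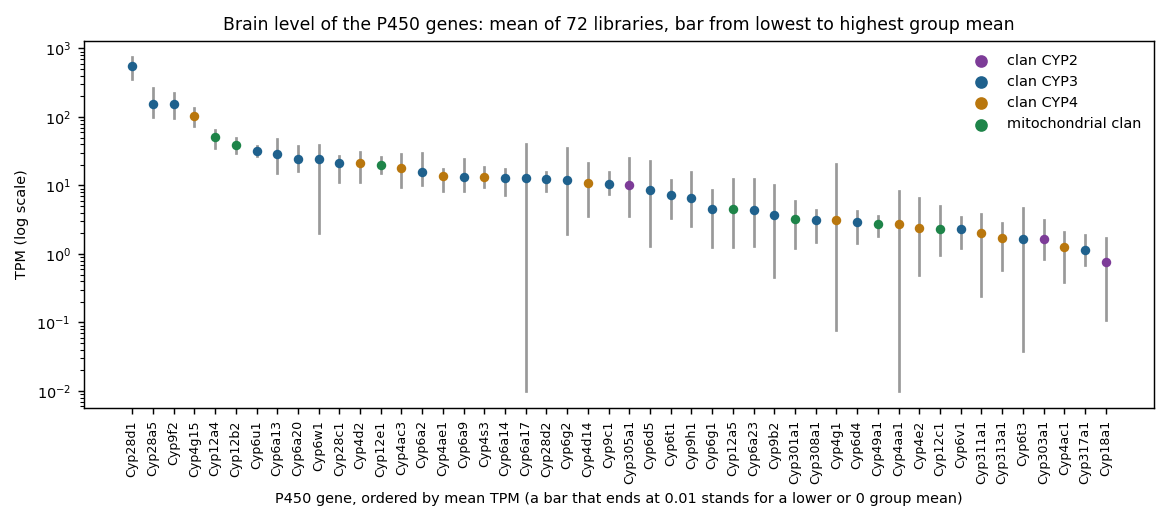
Mean level of the 48 P450 genes over 72 libraries in TPM on a log axis, ordered by level and coloured by clan, with a bar from the lowest to the highest of 24 group means (n = 3 each). Cyp28d1 stands at 555 TPM, and Cyp6a17 has the longest bar.

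Of the 48 genes, 38 had a count in every library. For 31, the standard deviation of log2 level between groups exceeded that between replicates, and for 6 it was over 2 times as large. Those 6 were Cyp6a17, Cyp6w1, Cyp6a13, Cyp4d14, Cyp9f2 and Cyp28a5, and the sections that follow turn on them and on Cyp4d2, the neighbour of Cyp4d14. They do not share 1 pattern: Cyp6a17 separated genetic backgrounds, and Cyp6w1 separated the TrpA1 29C groups of several lines. Cyp4d2 and Cyp4d14 separated the 21 °C groups of all 5 lines, and Cyp9f2 was called at 21 °C in HC, R60F09 and R85C10. In 17 genes the replicates of a group differed more than the groups did. Cyp4ac1 had the standard deviations 0.665 within and 0.408 between groups, and Cyp6g2, a gene of the corpus allatum, 1.35 and 0.982. Cyp4g1, with 1.32 and 1.27, had single high pools, at 44.3, 0.611 and 0.137 CPM in the 3 replicates of R21H11 TrpA1 29C and at 2.94, 2.67 and 54.4 CPM in the GAL4 control of R85C10.

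**Figure D2:**
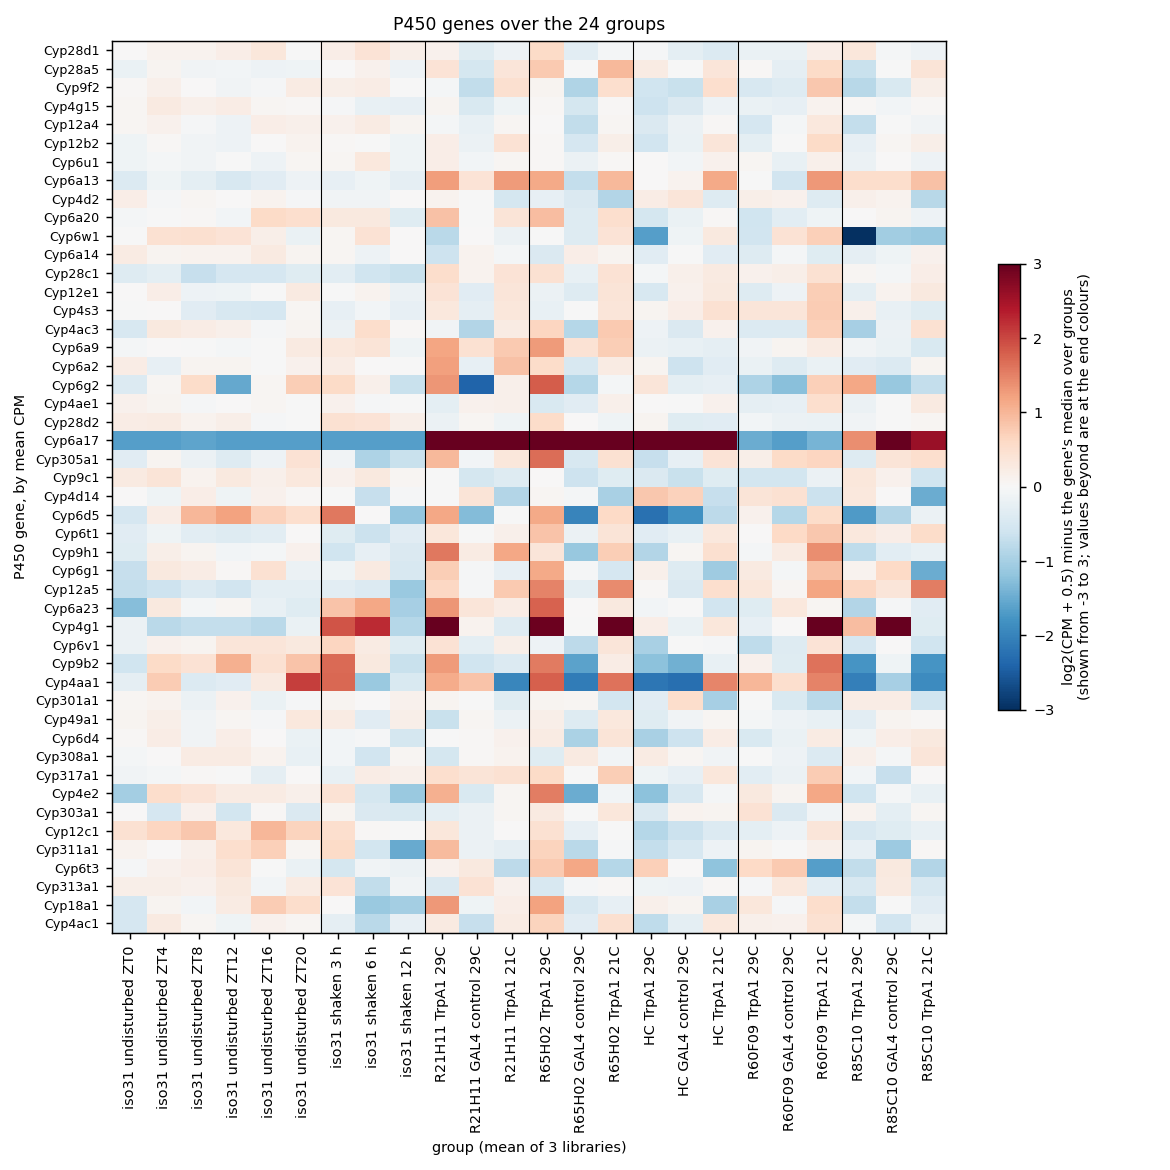
The 48 P450 genes over the 24 groups: colour gives the group mean as log2(CPM + 0.5) minus the gene's median over groups, red higher and blue lower, cut off at 3 in either direction. The row of Cyp6a17 divides the iso31 and R60F09 groups from the others, and Cyp6w1 is lowest in R85C10 TrpA1 29C.

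Cyp6a17, which Drosophila needs for its normal temperature preference, was present or all but absent by genetic background. Among the 27 libraries of iso31, 26 had no count of it, with 1 count in all, which pools to 0.00403 CPM (95% Poisson interval 0.000102 to 0.0225 CPM). In R60F09, 6 of 9 libraries had none, and the pooled level was 0.0515 CPM (0.0140 to 0.132 CPM). A count was present in every library of the other lines. The pooled level was 31.1 CPM (29.9 to 32.4 CPM) in R21H11, 24.1 CPM (23.0 to 25.2 CPM) in R65H02, 15.8 CPM (14.9 to 16.6 CPM) in HC and 8.09 CPM (7.42 to 8.80 CPM) in R85C10. These intervals cover counting error only. No library of iso31 or R60F09 came above 0.186 CPM, and no library of the other 4 lines fell below 2.56 CPM.

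The wake-promoting lines were compared in a single model of 36 libraries, once among their GAL4 controls and once among their TrpA1 21C groups. Among the GAL4 controls Cyp6a17 was called at an adjusted p of 2.52e-12, and among the 21 °C groups at 3.11e-13 (edgeR's quasi-likelihood test, Benjamini-Hochberg over all genes of the fit, threshold 0.05). Between these genotypes 4 of 48 P450 genes were called in the controls, against 4.33% of all genes tested, and 6 of 48 at 21 °C, against 5.44%. Without replicate 2 the counts were 1 and 3, and without replicate 1 that at 21 °C was 3. Here and below, P450 counts from altered fits or at unadjusted p stand without the share of all genes. Changes in them are not read as particular to P450 genes. Only Cyp6a17 stayed called at both temperatures whichever replicate was left out, with adjusted p up to 3.88e-06. R85C10 was dissected at another hour and was not in this model. Cyp6a23, the gene next to Cyp6a17, was present where Cyp6a17 was not, at a median of 2.34 CPM over the iso31 libraries and 3.47 CPM over those of R60F09. The Cyp6a genes are close paralogs, so the split of reads among them is uncertain.

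**Figure D3:**
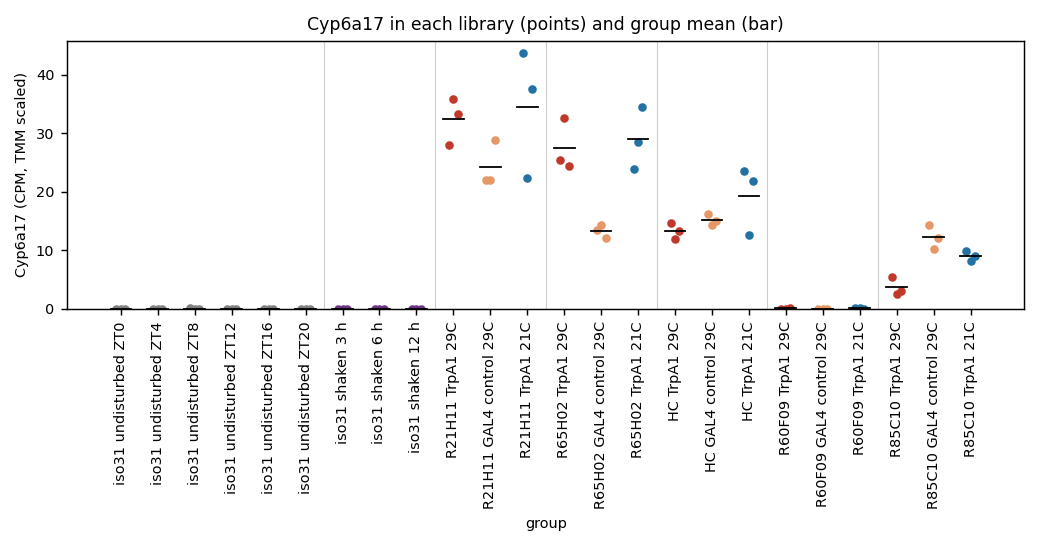
Cyp6a17 in CPM (scaled by TMM) in each library (points) with the group mean (bar), for 9 iso31 groups and the 3 groups of each GAL4 line. Libraries of iso31 and R60F09 lie at or near 0, and R21H11 reaches 43.7 CPM.

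A further 3 genes were called among the GAL4 controls. Cyp28a5 stood at 82.8, 78.96 and 96.9 CPM in R21H11, 113, 123 and 132 CPM in R65H02, 134, 119.6 and 112 CPM in HC and 105, 95.8 and 109 CPM in R60F09 (adjusted p = 0.00533). R21H11 lay below R65H02 and HC and overlapped R60F09 in 1 pool. Cyp6a13 was at 19.3 to 26.8 CPM in R21H11 and 9.91 to 10.9 CPM in R65H02, without overlap (adjusted p = 0.00237). Cyp4d2 was lowest in R65H02 at 20.8, 16.4 and 15.1 CPM and highest in HC at 32.3, 30.7 and 28.4 CPM (adjusted p = 0.00154). Without replicate 2, none of these 3 was called (0.249 for Cyp4d2, 0.249 for Cyp6a13 and 0.346 for Cyp28a5). Cyp28a5 was not called without replicate 1 either (0.252), nor Cyp6a13 without replicate 3 (0.116).

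At 21 °C the same comparison called Cyp28a5 and Cyp4d2 again and added Cyp6a2, Cyp6g1 and Cyp6a9. Cyp6a2, an enzyme that can metabolise DDT, was at 22.6, 22.3 and 23.8 CPM in R21H11, 14.5, 13.7 and 15.5 CPM in R65H02, 10.4, 8.64 and 9.703 CPM in HC and 11.7, 10.9 and 9.17 CPM in R60F09. Every R21H11 library lay above every other one, and the adjusted p was 0.000118. The call on Cyp6a2 held whichever replicate was left out. Cyp6g1, the gene behind DDT and neonicotinoid resistance in many field strains, was at 6.103, 12.5 and 6.55 CPM in R60F09 and 2.09, 1.63 and 1.68 CPM in HC (adjusted p = 0.0225). Cyp6a9 was highest in R65H02 and R21H11, at 13.5, 21.1 and 20.6 CPM and 23.8, 10.2 and 22.9 CPM, against 6.304 to 12.1 CPM in HC (adjusted p = 0.0276). The calls on Cyp6g1 and Cyp6a9 ended without replicate 2 (0.237 and 0.190), that on Cyp6g1 also without replicate 1 (0.235) and that on Cyp6a9 without replicate 3 (0.165). For Cyp4d2, leaving out replicate 1 or 2 gave 0.443 and 0.491, and for Cyp28a5 leaving out replicate 1 gave 0.0945.

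Temperature was read from the 21 °C group of each line. A gene was called when this group differed past the threshold, in the same direction, from both 29 °C groups of its line. The group kept at 21 °C differs from TrpA1 29C in temperature and channel activity, and from the GAL4 control in temperature and transgene. Both contrasts share the 21 °C libraries. By this rule 1 of 47 P450 genes was called in R21H11 (background 1.38% of all genes tested), 5 of 48 in R65H02 (11.7%), 7 of 43 in HC (23.1%), 16 of 46 in R60F09 (38.2%) and 7 of 42 in R85C10 (6.61%). As a share of the genes tested, the P450 genes came to 2.13%, 10.4%, 16.3%, 34.8% and 16.7%, so their share stood above the background by more than 1.5 times in R21H11, through 1 gene, and in R85C10. By direction, 0 were higher and 1 lower in R21H11 (0.63% and 0.754% of all genes), 2 and 3 in R65H02 (6.1% and 5.6%), 4 and 3 in HC (12.2% and 10.9%), 13 and 3 in R60F09 (18.8% and 19.4%) and 3 and 4 in R85C10 (3.33% and 3.28%). The count fell to 0 in R21H11 without replicate 1 or 3, to 3 in R65H02 without replicate 2 or 3, to 7 in R60F09 without replicate 2 and to 1 in R85C10 without replicate 3.

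Cyp4d2, a CYP4 clan gene, was lower at 21 °C in all 5 lines, the only P450 gene called in every line. Of the 8525 genes tested in all 5 lines, 0.446% were lower and called in all 5. In R85C10 it was at 14.4, 12.5 and 12.5 CPM at 21 °C, 25.2, 28.4 and 25.2 CPM in TrpA1 29C and 23.99, 30.2 and 22.5 CPM in the GAL4 control. In HC the values were 17.9, 18.8 and 17.5 CPM at 21 °C, 27.9, 28.6 and 26.9 CPM in TrpA1 29C and 32.3, 30.7 and 28.4 CPM in the GAL4 control. In R60F09 they were 17.1, 18.2 and 19.2 CPM at 21 °C, 25.6, 24.5 and 30.04 CPM in TrpA1 29C and 26.3, 28.4 and 24.02 CPM in the GAL4 control. In these lines the 21 °C pools lay well below the 29 °C pools, which overlapped each other. R21H11 had 16.6, 15.04 and 17.4 CPM at 21 °C, 23.2, 28.1 and 25.7 CPM in TrpA1 29C and 22.6, 24.9 and 23.6 CPM in the GAL4 control. R65H02 had 9.94, 13.2 and 14.8 CPM at 21 °C, 23.2, 20.3 and 15.9 CPM in TrpA1 29C and 20.8, 16.4 and 15.1 CPM in the GAL4 control, where the groups came close without overlapping.

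The log2 ratio of TrpA1 29C to 21 °C for Cyp4d2 was 0.99 ± 0.15 (SE) in R85C10, 0.67 ± 0.14 in R21H11, 0.64 ± 0.18 in R65H02, 0.62 ± 0.10 in HC and 0.55 ± 0.13 in R60F09. The larger of the 2 adjusted p-values per line was 0.00136 in R85C10, 0.00128 in HC, 0.00388 in R60F09, 0.0269 in R21H11 and 0.0334 in R65H02. In the 27 iso31 libraries, Cyp4d2 ranged from 18.7 to 31.4 CPM. Leaving out 1 replicate number left calls in HC, R60F09 and R85C10 without replicate 1, in HC and R85C10 without replicate 2, and in all lines but R21H11 without replicate 3.

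Its neighbour Cyp4d14, of the same clan, was lowest at 21 °C in all 5 lines without overlap, as were 0.88% of genes, and was called in 4. In R85C10 the 21 °C pools held 2.46, 3.72 and 2.07 CPM, against 9.73, 11.7 and 11.1 CPM in TrpA1 29C and 7.12, 9.49 and 9.32 CPM in the GAL4 control. In HC the 21 °C pools held 6.38, 4.55 and 4.53 CPM, against 12.4 to 16.5 CPM in the 6 pools at 29 °C. The log2 ratio of TrpA1 29C to 21 °C was 1.98 ± 0.25 in R85C10, 1.56 ± 0.18 in HC, 1.12 ± 0.22 in R65H02 and 1.09 ± 0.22 in R60F09, with larger adjusted p of 0.00128, 0.000232, 0.00201 and 0.00217. In R21H11 it was at 5.88, 3.67 and 3.86 CPM at 21 °C and 6.72 to 13.8 CPM at 29 °C, and the contrast with TrpA1 29C missed the threshold (adjusted p = 0.0943). Without replicate 3 the call in R85C10 ended (0.0976).

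The gene on the other side of Cyp4d2, Cyp4ae1, differed from its neighbours in direction. It was higher at 21 °C and called in R60F09, at 18.5, 16.1 and 17.3 CPM against 9.12 to 10.8 CPM at 29 °C, and in R65H02, at 13.9, 11.6 and 14.8 CPM against 7.005 to 10.6 CPM. In R85C10 the pools at 21 °C, at 16.1, 14.1 and 13.3 CPM, also lay above the 6 at 29 °C, at 9.73 to 12.6 CPM, without a call. The difference between neighbours was not itself tested, and Cyp4ae1 was chosen after its values were seen.

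Cyp9f2, among the abundant P450 genes, was higher at 21 °C. It was called in HC, R60F09 and R85C10, and 3.59% of genes were called higher in at least 3 lines. In R60F09 the pools held 236, 234 and 246 CPM at 21 °C, 83.1, 94.96 and 114 CPM in TrpA1 29C and 111, 100.3 and 99.7 CPM in the GAL4 control. In HC they held 187, 171 and 214 CPM at 21 °C, 83.2, 89.3 and 96.4 CPM in TrpA1 29C and 95.1, 75.8 and 83.3 CPM in the GAL4 control, and in R85C10 151, 150.1 and 157 CPM at 21 °C, 62.7, 75.7 and 90.1 CPM in TrpA1 29C and 99.1, 109 and 85.1 CPM in the GAL4 control. Each 21 °C pool lay above each 29 °C pool of its line. The log2 ratio of TrpA1 29C to 21 °C was -1.29 ± 0.11 (SE) in R60F09, -1.09 ± 0.10 in HC and -1.0 ± 0.12 in R85C10, with larger adjusted p of 2.15e-05, 3.40e-05 and 0.00512. The call in R85C10 ended without replicate 3. In R21H11 and R65H02 the TrpA1 29C group lay between the others, at 128, 152 and 108 CPM between 72.5 to 88.8 and 155 to 206 CPM in R21H11, and at 122, 168 and 140.1 CPM between 62.1 to 86.04 and 137 to 234 CPM in R65H02, where it overlapped the 21 °C pools.

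Cyp6a13, next to Cyp6a14, was higher at 21 °C in HC and R60F09. It was at 42.4, 50.1 and 39.4 CPM at 21 °C in R60F09, against 9.76 to 20.3 CPM at 29 °C (log2 ratio of TrpA1 29C to 21 °C -1.34 ± 0.19, adjusted p = 0.000356). In HC it was at 33.7, 31.1 and 51.5 CPM, against 15.4 to 22.1 CPM (log2 ratio of the GAL4 control to 21 °C -1.03 ± 0.20, adjusted p = 0.00286). In R21H11 and R65H02 both TrpA1 groups were high and only the GAL4 control was low. The iso31 libraries ranged from 8.88 to 19.5 CPM.

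Cyp6t3, which has been tied to ecdysteroid production in the larval prothoracic gland, was rare in these brains and lower at 21 °C in 3 lines. In R65H02 it was at 0.648, 0.3296 and 0.365 CPM at 21 °C, against 1.46 to 4.097 CPM at 29 °C (adjusted p = 0.00334 against TrpA1 29C). In HC it was at 0.0997, 0.467 and 0.129 CPM, against 0.914 to 2.57 CPM, and in R60F09 at 0, 0.116 and 0 CPM, against 1.73 to 2.55 CPM. The groups did not overlap, and the larger adjusted p was 0.012 in HC and 0.00026 in R60F09. The HC call ended without replicate 1 (0.0632) and without replicate 3 (0.176). The 8 ecdysteroid synthesis genes listed beside the P450s, phm, dib, sad, shd, spo, spok, nvd and sro, averaged 0.0365 to 1.25 TPM. Of these, 1 was tested in HC and 1 in R60F09, where sro was called at 21 °C, and 0 in the other lines, so the list could not be read.

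**Figure D4:**
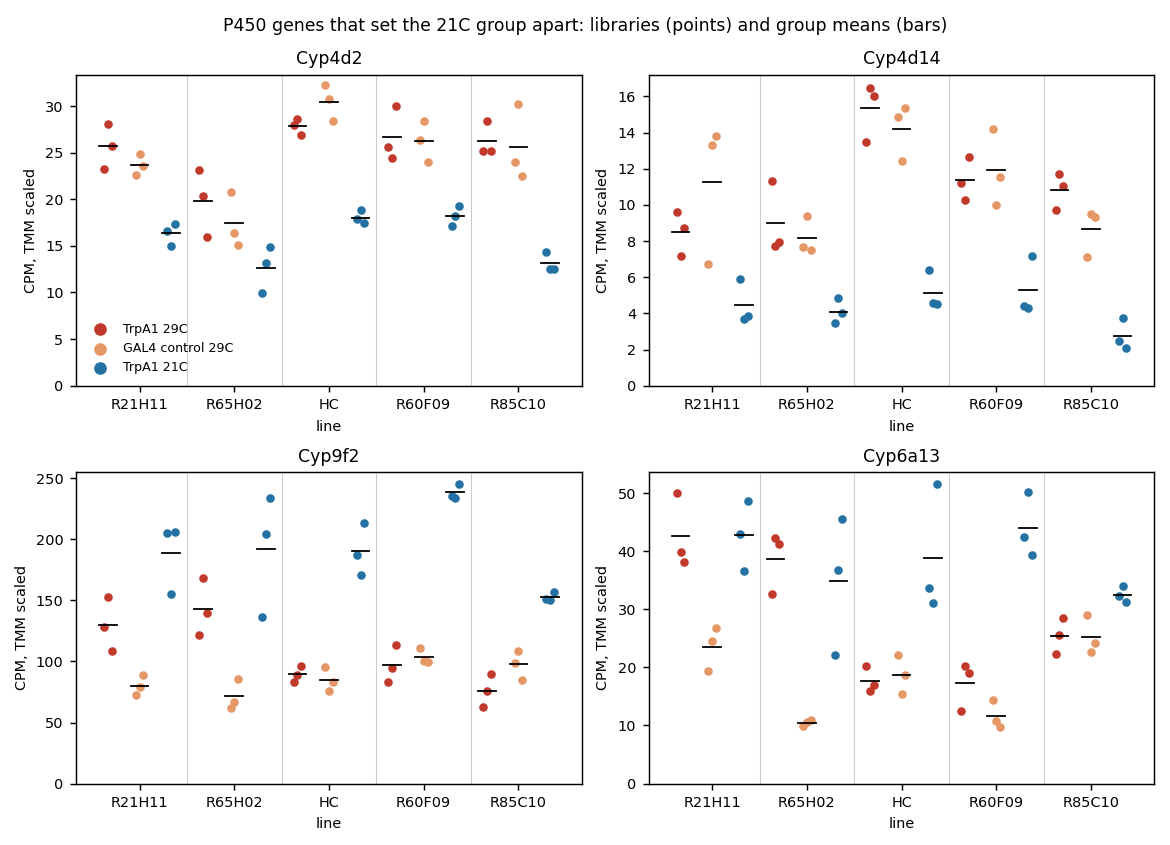
Cyp4d2, Cyp4d14, Cyp9f2 and Cyp6a13 in CPM (scaled by TMM) in the 3 groups of each of the 5 lines, with a point per library and a bar at the mean. The 21 °C pools (blue) lie lowest for Cyp4d2 and Cyp4d14 in all 5 lines and highest for Cyp9f2 in HC, R60F09 and R85C10.

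Other genes were called at 21 °C in 1 or 2 lines. Cyp12e1, of the mitochondrial clan, was called higher in R65H02 and R60F09. It was higher in R65H02, at 16.5, 21.2 and 22.3 CPM against 9.81 to 15.4 CPM at 29 °C (larger adjusted p 0.0134), and lost the call without replicate 2 (0.066) and without replicate 3 (0.164). In R60F09, Cyp9b2 was at 9.49, 11.3 and 4.33 CPM at 21 °C and Cyp4g1 at 29.3, 25.2 and 2.82 CPM, against 0.901 to 5.12 and 0.186 to 0.942 CPM. For Cyp9b2 the groups overlapped. The larger adjusted p was 0.0276 for Cyp9b2, which was not called without replicate 1 (0.198) or 2 (0.281), and 0.00485 for Cyp4g1, which was not called without replicate 1 (0.0962). Cyp12a5, also mitochondrial, was called higher in R60F09 and R85C10. In R85C10, Cyp12a5 was at 9.16, 10.1 and 10.9 CPM against 3.87 to 5.98 CPM, and Cyp6g1 was lower, at 0.958, 1.34 and 1.33 CPM against 2.94 to 10.4 CPM. Their larger adjusted p was 0.00715 and 0.0215. Neither was called without replicate 3 (0.124 and 0.157), Cyp12a5 not without replicate 2 (0.0534), and Cyp6g1 not without replicate 1 (0.209).

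Markers of other cells moved with some of these groups. The neuron markers were called lower at 21 °C for 4 of 5 in R60F09, 3 of 5 in HC, 1 of 5 in R65H02 and 1 of 5 in R85C10. Their sum at 21 °C was 1608 to 2735 TPM in R60F09 against 3563 to 4046 TPM in its 29 °C groups, and 1830 to 3045 TPM in HC against 3615 to 4105 TPM. In R85C10, where Cyp4d2, Cyp4d14 and Cyp9f2 were called at 21 °C, the sum was 3779 to 4076 TPM at 21 °C and 3182 to 4344 TPM at 29 °C. The glia sum in R85C10 was 4054 to 4178 TPM at 21 °C and 3391 to 3621 TPM at 29 °C, without overlap. Of 7 glia markers, alrm and Eaat1 were higher at 21 °C in R85C10 and R60F09, and alrm in HC. The mitochondrial share at 21 °C and 29 °C was 3.96% to 9.17% and 1.69% to 2.35% in R60F09, 3.37% to 4.93% and 1.75% to 2.66% in HC, and 2.57% to 3.25% and 1.68% to 2.57% in R85C10. Of 4 haemocyte markers, Pxn was higher in R65H02 and R85C10 and Hml lower in HC and R60F09, and of 2 oenocyte markers tested Desat1 was lower in HC. Muscle markers were called higher for 1 of 4 tested in HC and in R60F09, and 1 of 5 fat body markers tested, Lsp2, was higher at 21 °C in R85C10. The part of these shifts in the P450 results at 21 °C was not tested.

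Of 12 redox partner and haem genes of the P450 enzymes, 7 were higher at 21 °C in R60F09 (18.8% of all genes), 2 in R65H02 (6.1%), 2 in HC (12.2%) and 0 in R21H11 and R85C10. Ho, the haem oxygenase that degrades haem, and dare, which encodes the reductase that feeds the mitochondrial P450s, were the ones called in all of R65H02, HC and R60F09. The log2 ratio of TrpA1 29C to 21 °C for Ho was -1.09 ± 0.15 in R60F09, -0.76 ± 0.14 in HC and -0.61 ± 0.088 in R65H02, with larger adjusted p of 0.000356, 0.00264 and 0.000251. That of dare was -0.77 ± 0.20, -0.78 ± 0.19 and -0.70 ± 0.16, with larger adjusted p of 0.00727, 0.0136 and 0.00626. Hr96, a nuclear receptor of the xenobiotic response, was lower at 21 °C and called in the same 3 lines, with a log2 ratio of TrpA1 29C to 21 °C of 0.63 ± 0.11 (SE) in R60F09, 0.45 ± 0.095 in HC and 0.31 ± 0.075 in R65H02.

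Activation was read as a difference of TrpA1 29C, in the same direction, from both controls of its line, which share the TrpA1 29C libraries. No P450 gene was called in R21H11 (0 of 47, background 1.45%, with 0.754% higher and 0.697% lower) or R60F09 (0 of 46, 0.0898%, with 0.0673% higher and 0.0224% lower), by edgeR. At an unadjusted p under 0.05 in single contrasts, 24 passed against the GAL4 control and 10 against 21 °C in R21H11, and 7 and 24 in R60F09. The share of all genes at that cutoff is not given. At the adjusted threshold, 12 of 47 passed against the GAL4 control (47.2% of all genes) and 1 against 21 °C (3.03%) in R21H11. In R60F09 0 of 46 (0.247%) and 21 (44.7%) did. By the rule of both controls, DESeq2 called 0 in R21H11 and 1 in R60F09. In R65H02 8 of 48 were called (background 17.5%), in HC 1 of 43 (0.523%, with 0.25% lower) and in R85C10 3 of 42 (0.955%, with 0.391% lower).

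Cyp6w1, a CYP3 clan gene whose raised expression accompanies DDT resistance, was the P450 gene most often low in TrpA1 29C. It lay below both controls without overlap in R21H11, HC, R60F09 and R85C10, as 0.199% of genes did in at least 4 lines, and was called in HC and R85C10. In R85C10 it was at 1.04, 1.95 and 1.47 CPM in TrpA1 29C, 10.99, 10.02 and 8.96 CPM in the GAL4 control and 8.34, 8.04 and 12.1 CPM at 21 °C. The log2 change was -2.70 ± 0.28 against the GAL4 control and -2.63 ± 0.28 against 21 °C (SE), with adjusted p of 7.65e-05 and 5.34e-05. Leaving out any 1 replicate number kept this call, with adjusted p up to 0.00879.

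In HC, Cyp6w1 was at 4.78, 5.91 and 8.298 CPM in TrpA1 29C, 19.9, 17.99 and 19.6 CPM in the GAL4 control and 32.4, 23.4 and 21.9 CPM at 21 °C. Again every activated pool lay below every control pool. The log2 change was -1.61 ± 0.20 against the GAL4 control (adjusted p = 0.00225) and -2.03 ± 0.20 against 21 °C (adjusted p = 3.90e-05). Without replicate 1 or 2 the larger adjusted p rose to 0.0515 and 0.053. R60F09 had 8.497, 15.5 and 17.7 CPM, against 34.1, 28.7 and 23.6 CPM and 30.7, 38.1 and 36.1 CPM. The contrast with 21 °C passed (log2 change -1.33 ± 0.22, adjusted p = 0.000821) and that with the GAL4 control did not (-1.07 ± 0.22, adjusted p = 0.0979).

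R21H11 gave 12.5, 12.1 and 11.1 CPM, against 17.8, 26.7 and 18.9 CPM in the GAL4 control (adjusted p = 0.0121) and 24.1, 18.3 and 12.9 CPM at 21 °C (adjusted p = 0.132). R65H02 did not share the low level, with 16.9, 24.8 and 20.5 CPM in TrpA1 29C, 10.9, 13.98 and 22.98 CPM in the GAL4 control and 29.7, 20.6 and 34.6 CPM at 21 °C. There the log2 change against the GAL4 control was 0.37 ± 0.30. The difference between the 4 wake-promoting lines passed as an interaction for both contrasts, with adjusted p of 0.00243 for the GAL4 control and 0.00442 for 21 °C. Without replicate 2 neither passed (0.160 and 0.231). Among the GAL4 controls of the 4 wake-promoting lines Cyp6w1 was not called (adjusted p = 0.216), nor among their 21 °C groups (0.102). The controls of R85C10, dissected at ZT12, held 8.04 to 12.1 CPM, below the 23.5 to 36.1 CPM of undisturbed iso31 at ZT12, and strain, GAL4 and temperature cannot be told apart there.

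**Figure D5:**
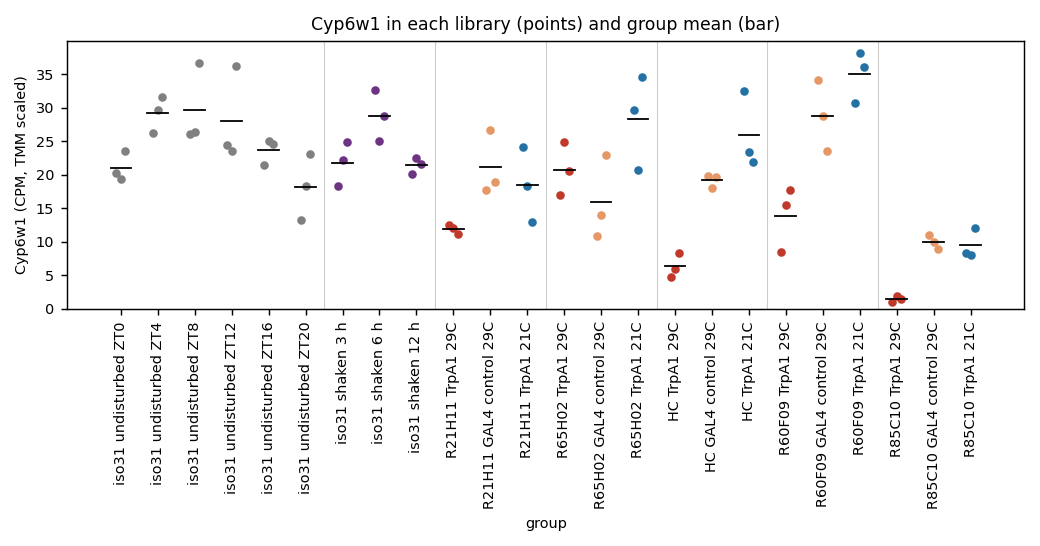
Cyp6w1 in CPM (scaled by TMM) in each library (points) and group mean (bar) over the 24 groups. TrpA1 29C (dark red) is lowest within R21H11, HC, R60F09 and R85C10, at 1.04 to 1.95 CPM in R85C10, and within the range of its controls in R65H02.

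R85C10 had 2 more genes below both controls. Cyp6a17 was at 5.39, 2.56 and 3.05 CPM in TrpA1 29C, against 14.4, 10.3 and 12.1 CPM in the GAL4 control and 9.85, 8.18 and 9.0 CPM at 21 °C, a log2 change of -1.34 ± 0.27 against the nearer control (adjusted p = 0.00445). Cyp28a5 was at 76.1, 64.9 and 90.8 CPM, against 136, 109.9 and 125 CPM and 169.5, 158 and 159 CPM, a log2 change of -0.68 ± 0.11 (adjusted p = 0.00582). Both were below their controls in every pool. The call on Cyp6a17 ended without replicate 3 (0.116) and that on Cyp28a5 without replicate 1 (0.0997). Fat body markers summed to 112 to 217 TPM in this TrpA1 29C group, 184 to 356 TPM in the GAL4 control and 295 to 790 TPM at 21 °C, with none of the 5 tested called. Their part in the Cyp28a5, Cyp6a17 and Cyp6w1 results was not tested.

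In R65H02, 7 P450 genes were higher and 1 lower in TrpA1 29C than in both controls (7.01% and 10.5% of all genes), and the count of 8 fell to 2 without replicate 2. Cyp6a23 was at 12.8, 12.4 and 11.2 CPM, against 2.95, 3.603 and 3.21 CPM in the GAL4 control and 3.13, 3.73 and 5.11 CPM at 21 °C (log2 change 1.60 ± 0.21 against 21 °C, adjusted p = 0.000117). Cyp4e2 was at 6.45, 7.71 and 5.34 CPM, against 0.316, 0.432 and 0.356 CPM and 2.27, 1.65 and 1.46 CPM (log2 change 1.84 ± 0.29 against 21 °C, adjusted p = 0.000463). For both genes the activated pools lay apart from all 6 controls. Cyp18a1, which inactivates ecdysteroids by hydroxylation, was at 2.24, 2.502 and 4.04 CPM, against 0.844, 0.865 and 0 CPM and 0.216, 0.989 and 1.096 CPM, with a larger adjusted p of 0.0274 that ranged from 0.066 to 0.127 when a replicate number was left out.

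Cyp28d1 and its neighbour Cyp28d2 rose together in R65H02. Cyp28d1 was at 600.2, 676 and 595 CPM in TrpA1 29C, against 325, 348 and 339 CPM in the GAL4 control and 292, 396 and 521 CPM at 21 °C, a log2 change of 0.62 ± 0.17 against the latter (adjusted p = 0.027, and 0.244 without replicate 2). Cyp28d2 was at 14.1, 15.2 and 13.9 CPM, against 8.02 to 10.6 CPM in the controls (log2 change 0.51 ± 0.15 against the GAL4 control, adjusted p = 0.0102). Cyp6a14 was the gene that fell, at 14.4, 14.4 and 15.1 CPM against 18.5 to 24.5 CPM, while its neighbour Cyp6a13, at 32.6, 42.3 and 41.2 CPM, was above the 9.91, 10.7 and 10.9 CPM of the GAL4 control, with a difference that missed the threshold from the 22.1, 36.8 and 45.5 CPM at 21 °C (log2 change 0.15 ± 0.22, adjusted p = 0.657). Cyp6a20, which affects male aggression in Drosophila, was at 35.3, 39.6 and 40.01 CPM against 14.8 to 32.6 CPM, and Cyp6a9, next to it, at 23.2, 29.2 and 28.02 CPM against 13.4 to 21.1 CPM. The Cyp28d2, Cyp6a14, Cyp6a13, Cyp6a20 and Cyp6a9 values were chosen after they had been seen.

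Set against the GAL4 control alone, 27 P450 genes of R65H02 were higher and 2 lower (26.9% of all genes in each direction), with a median log2 change of 0.83 over the 48 genes and 0.053 over all genes. The GAL4 control stood below both TrpA1 groups, which share UAS-TrpA1, for 18 of 48 P450 genes, and above for 0 (33.6% of all genes called, 16.1% lower and 17.5% higher). Cyp4aa1 was at 0, 0 and 0.178 CPM in the GAL4 control, 3.64, 9.17 and 10.6 CPM in TrpA1 29C and 17.7, 0.879 and 1.95 CPM at 21 °C. Cyp6d5 was at 0.844, 1.297 and 1.43 CPM in the GAL4 control, 12.99, 16.2 and 13.3 CPM in TrpA1 29C and 4.32, 4.83 and 19.4 CPM at 21 °C, and Cyp4e2 had its low values of 0.316 to 0.432 CPM there. Cyp9b2 was at 0.316, 0.865 and 0.178 CPM in the GAL4 control, 6.45, 12.2 and 5.22 CPM in TrpA1 29C and 3.13, 5.16 and 0.365 CPM at 21 °C, with overlap between the GAL4 control and the 21 °C pools. The larger adjusted p was 0.0379 for Cyp4aa1, 0.0102 for Cyp6d5, 0.0484 for Cyp9b2 and 0.000806 for Cyp4e2. Leaving out a replicate number gave up to 0.255 for Cyp4aa1 (without replicate 3), 0.353 for Cyp9b2 (without replicate 1) and 0.0695 for Cyp6d5 (without replicate 1).

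Markers of other tissue moved with this group. In the R65H02 GAL4 control 4 of 4 muscle markers tested were lower and 5 of 5 neuron markers higher than in both TrpA1 groups. The muscle sum was 13.9 to 18.6 TPM in the control, 53.3 to 82.6 TPM in TrpA1 29C and 38.0 to 56.3 TPM at 21 °C, and the neuron sum was 4118 to 4384 TPM in the control and 2125 to 2999 TPM in the TrpA1 groups. The fat body sum overlapped between groups. The photoreceptor sum was 1004 to 1096 TPM in TrpA1 29C, 224 to 743 TPM in the GAL4 control and 158.5 to 1066 TPM at 21 °C. Of 5 photoreceptor markers, 0 were called for activation and 0 for the GAL4 control. Over the 24 groups of the series, the pool highest in this sum was also highest in Cyp4e2 in 16 groups and in Cyp9b2 in 15. For Cyp6d5 this held in 13 groups and for Cyp4aa1 in 10, against a median of 7 over genes tested in the 36-library fit. The other genes among the 18 ranged from 5 groups, for Cyp9f2 and Cyp6a17, to 15, for Cyp4g15. Between TrpA1 29C and both controls, 2 of 5 neuron markers were lower, 1 of 4 muscle markers, Mlc2, was higher and 1 of 5 fat body markers, Lsp2, was higher. The oenocyte marker Desat1 and the haemocyte marker NimC1 were also higher there and Pxn lower, and the glia markers alrm and wrapper were lower and the tracheal marker btl higher in the GAL4 control than in both TrpA1 groups. The mitochondrial share was 4.33% to 5.33% in TrpA1 29C, 2.16% to 2.29% in the GAL4 control and 2.85% to 4.37% at 21 °C. The part of these differences in the 18 calls on the GAL4 control and the 8 on activation was not tested.

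The GAL4 control was the odd group out in R21H11 as well, with 4 of 47 P450 genes lower than in both TrpA1 groups (12.7% of all genes called, 4.94% higher and 7.77% lower). Cyp28a5 was at 82.8, 78.96 and 96.9 CPM in the control, 160.4, 181 and 149 CPM in TrpA1 29C and 171, 144 and 161 CPM at 21 °C, and Cyp6a2 at 7.74, 8.17 and 14.7 CPM in the GAL4 control, 26.5, 31.9 and 28.6 CPM in TrpA1 29C and 22.6, 22.3 and 23.8 CPM at 21 °C. Cyp6a13 was at 19.3, 24.5 and 26.8 CPM in the GAL4 control, 49.96, 39.8 and 38.1 CPM in TrpA1 29C and 42.98, 36.6 and 48.6 CPM at 21 °C, and Cyp9f2 at 72.5 to 88.8 CPM in the control. None of the 4 overlapped, and their larger adjusted p was 0.00493, 0.0137, 0.0147 and 0.00732. Without replicate 1 none was called (0.0639 to 0.106), and without replicate 3 only Cyp6a2 was (0.0881 for Cyp28a5, 0.171 for Cyp6a13 and 0.0734 for Cyp9f2). The neuron sum was 4041 to 4291 TPM in this control and 1331 to 2786 TPM in the TrpA1 groups, and its part was not tested. In HC (0 of 43, background 0.489%), R60F09 (0 of 46, 0.224%) and R85C10 (0 of 42, 0.46%) no P450 gene set the GAL4 control apart by edgeR, nor by DESeq2. However, Cyp28a5 was lowest in the control without overlap in R21H11, R65H02, HC and R60F09, as 1.81% of genes were in at least 4 lines. In HC, R60F09 and R85C10 the single contrasts passed at an unadjusted p under 0.05 for 7 to 14 P450 genes between the 29 °C groups and 14 to 19 between the GAL4 control and 21 °C. At the adjusted threshold these were 1 (0.989% of all genes), 0 (0.247%) and 3 (1.44%) between the 29 °C groups. Between the GAL4 control and 21 °C they were 10 (33.4%), 16 (48.9%) and 7 (9.02%).

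Whether the difference of TrpA1 29C from a control varied between the wake-promoting lines was tested as an interaction, for each control on its own, so that a low GAL4 control or a shifted 21 °C group counts as well. Against the GAL4 control 24 of 48 P450 genes passed (36.7% of all genes), and against 21 °C 22 of 48 (41.6%). Cyp305a1, of the CYP2 clan, was an example: in R65H02 it was at 18.1, 27.0 and 32.4 CPM in TrpA1 29C against 4.96, 5.33 and 5.88 CPM in the GAL4 control, and in HC at 4.02, 5.43 and 4.33 CPM against 5.49, 6.51 and 7.296 CPM. The log2 change against the GAL4 control was 2.22 ± 0.51 in R65H02, 1.11 ± 0.27 in R21H11, -0.51 ± 0.23 in HC and -0.43 ± 0.27 in R60F09, and the interaction had an adjusted p of 0.000713. Cyp6a13 had 0.000852, with log2 changes of 1.84 ± 0.25, 0.84 ± 0.17, -0.10 ± 0.20 and 0.55 ± 0.20 in the same order. Without replicate 2 the counts fell to 0 and 1.

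Of 6 xenobiotic response regulators listed, 5 were tested, and maf-S, which pairs with the stress regulator cnc, was higher in TrpA1 29C than in both controls in R21H11 (0.754% of all genes higher) and R65H02 (7.01%). Its log2 change against the GAL4 control was 1.11 ± 0.18 in R21H11 and 1.02 ± 0.12 in R65H02, with larger adjusted p of 0.0295 and 0.000141. No other regulator was called for activation in any of the 5 lines. Of the 12 redox and haem genes, Alas, the first enzyme of haem synthesis, and Cyt-b5, an electron donor to some P450s, were higher with activation in R65H02, and none was called in the other lines.

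Against undisturbed flies at ZT0, 2 of 45 were called after 3 h (23.6% of all genes), 8 of 45 after 6 h (46.1%, with 23.7% higher and 22.5% lower) and 1 of 45 after 12 h (16.3%, with 7.16% lower). The 3 comparisons share the ZT0 libraries. With limma on log2 TPM the counts after 6 and 12 h were 15 and 7. The count after 3 h was 1 without replicate 2 and 0 without replicate 3, that after 6 h 5 without replicate 2, and that after 12 h 0 without any of the 3. The median log2 change of the P450 genes tested was 0.18, 0.12 and -0.15, and that of all genes 0.026, 0.032 and 0.013. Cyp28d1, the most abundant P450, was at 422, 411 and 434 CPM at ZT0, 490.4, 425 and 514 CPM after 3 h, 561, 560.4 and 529 CPM after 6 h and 478, 470 and 459 CPM after 12 h. All pools shaken for 6 or 12 h lay above the ZT0 pools. The log2 change was 0.18 ± 0.06 (adjusted p = 0.0365), 0.38 ± 0.06 (adjusted p = 9.03e-05) and 0.17 ± 0.06 (adjusted p = 0.0664). On the TPM scale with limma the change turned to -0.077 after 3 h and -0.036 after 6 h, and the call at 3 h ended without replicate 1 (0.284) or replicate 3 (0.402).

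After 6 h, Cyp28a5, Cyp28d1, Cyp4ac3, Cyp6g1, Cyp6u1 and Cyp6w1 were higher, and Cyp4d14 and Cyp6a14 lower. Cyp6u1 was at 28.3, 26.1 and 28.1 CPM at ZT0 and 36.3, 37.2 and 39.2 CPM after 6 h (log2 change 0.45 ± 0.083, adjusted p = 0.000401). Cyp4ac3 was at 6.48, 8.58 and 13.6 CPM and 21.2, 18.96 and 19.1 CPM (log2 change 1.04 ± 0.28, adjusted p = 0.00863). In both the groups did not overlap, nor did they for Cyp6w1, at 20.3, 19.3 and 23.5 CPM and 32.6, 24.96 and 28.7 CPM (log2 change 0.45 ± 0.13, adjusted p = 0.0106, 0.119 without replicate 1). Cyp4d14 was at 7.52, 9.95 and 8.43 CPM and 6.26, 4.36 and 4.78 CPM (log2 change -0.74 ± 0.24, adjusted p = 0.0196). The other calls were Cyp6v1, higher after 3 h (log2 change 0.94 ± 0.30, adjusted p = 0.0313), and Cyp311a1, lower after 12 h at 0, 0.168 and 0.388 CPM against 1.597, 2.47 and 0.751 CPM (adjusted p = 0.0405). Cyp6u1, Cyp4ac3, Cyp4d14, Cyp6v1 and Cyp311a1 were singled out here after their values were seen.

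The neuron markers were called lower for 5 of 5 after 3 and 6 h and for 4 of 5 after 12 h, and their sum was 3648 to 3768 TPM at ZT0 and 2011 to 2172 TPM after 6 h. The glia sum was 3361 to 3681 TPM at ZT0 and 2007 to 2334 TPM after 6 h. The mitochondrial share was 2.26% to 3.06% at ZT0, 4.10% to 4.18% after 3 h, 5.81% to 7.07% after 6 h and 3.18% to 5.80% after 12 h, without overlap with ZT0. The glia marker Gs2 was lower after 6 and 12 h, the haemocyte markers Hml and Pxn were lower after 6 h, and of the oenocyte markers Desat1 was higher after 3 and 6 h and CG18031 lower after 6 h. Marker calls rest on counts and sums on TPM, and these can differ. The oenocyte sum, most of it Desat1, was 385 to 417 TPM at ZT0 and lower, at 333 to 360 TPM, after 6 h. The photoreceptor sum was 1035 to 5286 TPM at ZT0 and 253 to 1169 TPM after 12 h, with 0 of 5 markers called. In 19 of 24 groups the pool highest in this sum was also highest in Cyp311a1, a gene picked after its values were seen. The median over genes tested in the 36-library fit was 7 groups. A correction for gene length left 3 P450 calls after 6 h and 0 after 3 and 12 h. The part of these marker and mitochondrial shifts in the calls was not tested. Among the 12 redox and haem genes, 3 were higher after 3 h (11.5% of all genes), 8 after 6 h (23.7%) and 3 after 12 h (9.12%), and 0 were lower. Cyt-b5 was called at all 3 durations, with log2 changes of 0.68 ± 0.09, 0.90 ± 0.091 and 0.53 ± 0.091 and adjusted p of 0.000212, 1.50e-06 and 0.00252. FeCH, the ferrochelatase that completes haem, was higher by 0.38 ± 0.09 after 3 h and 0.39 ± 0.091 after 6 h on the count scale. The 12 genes summed to 799 to 842 TPM at ZT0 and 873 to 902 TPM after 3 h. After 6 h the sum was 861 to 876 TPM, and after 12 h 801 to 909.5 TPM. The calls on these 12 genes were not repeated on the TPM scale or with the correction for gene length.

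Over the 6 undisturbed times, 2 of 46 P450 genes were called in the fit without a replicate block, against 15.1% of all genes. Same-numbered libraries correlated above 0.1 in 44 of 45 pairs, though the labels do not say that a number marks a batch. With the replicate number as a block the count was 11, and limma on log2 TPM called 5. The share of all genes called in these fits is not given here, and the number of P450 genes called depended on the model. The adjusted p-values below come from edgeR fits without a block. Cyp4s3, of the CYP4 clan, was at 14.9, 14.5 and 14.2 CPM at ZT0, 15.4, 15.2 and 13.4 CPM at ZT4, 11.1, 9.68 and 13.6 CPM at ZT8, 13.03, 8.64 and 9.52 CPM at ZT12, 9.15, 11.04 and 10.2 CPM at ZT16 and 15.8, 11.8 and 18.4 CPM at ZT20. It was high at ZT0 and ZT4 and in 2 of 3 pools at ZT20, and lower between them (adjusted p = 0.031). Cyp6w1 was at 20.3, 19.3 and 23.5 CPM at ZT0, 26.2, 29.7 and 31.6 CPM at ZT4, 26.1, 26.3 and 36.6 CPM at ZT8, 24.4, 23.5 and 36.1 CPM at ZT12, 21.4, 24.97 and 24.6 CPM at ZT16 and 13.3, 18.2 and 23.1 CPM at ZT20. It was highest on average at ZT8 and lowest at ZT20 (adjusted p = 0.0453). Without ZT20, whose pools had a mitochondrial share of 3.91% to 5.70% against 1.92% to 3.16% at the other times, neither gene was called (0.282 and 0.569). The neuron sum was 2378 to 2875 TPM at ZT20 and 3163 to 3905 TPM at the other times, and its part was not tested. Cyp6w1 was not called without replicate 1 (0.221) or 2 (0.4), and Cyp4s3 was not called without any one replicate (0.102 to 0.182).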

How the data were processed

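RNA of pooled brains was sequenced in 72 libraries, 24 groups of 3 (PicoPure extraction, NEBNext Ultra II libraries, per the labels). The authors deposited estimated counts and TPM per gene for each library. kallisto 0.46.1 is named in the submitters' processing notes, where its role is not given, and the build, annotation and strand of counting are not given in the sources used here. Gene neighbours were read by symbol from the RefSeq table of Release 6 plus ISO1 MT.

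Deposited estimated counts were rounded. Each fit used filterByExpr, TMM scaling and the robust quasi-likelihood F-test of edgeR 4.0.16 in R 4.3.3, with Benjamini-Hochberg adjustment over all its genes and a threshold of 0.05. The fits covered 18 undisturbed libraries, 12 for shaking, 9 for each line and 36 for the wake-promoting lines. CPM values in the text were scaled by TMM over all 72 libraries. Deposited TPM gave levels between genes. Low counts widen the error of rare genes, and read counts are not independent molecules.

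The alternatives were DESeq2 1.42.0, RLE scaling, no low-count filter, a replicate block, limma 3.58.1 on log2(TPM + 1), an offset for a trend with gene length (lowess, span 0.3), that offset with the block, each replicate number left out, and, over time of day, a cosine and ZT20 left out. The fit of R60F09 was also repeated without replicate 2 of its GAL4 control, chosen after seeing the data, because 4.2% of its TPM was missing. Calls on the listed redox, regulator and marker genes were not repeated under these alternatives. The scripts were tested on simulated counts.

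The P450 genes, gene lists and tests were chosen with earlier results of these data known. Genes were named by rule: Cyp6w1, the 6 of highest TPM, up to 6 called genes of smallest p over time of day, among lines and in each interaction, genes called at 2 or more shaking durations in the same direction, and up to 4 genes per line and pattern by the smaller of both log2 changes. Other genes and lines given were chosen after their values were seen, among them Cyp4d2 in HC and R60F09, Cyp9f2 in R60F09 and R85C10, and Cyp6w1 in R21H11 and R60F09.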

Additional observations from a re-analysis of the deposited data

Results flagged for a closer look

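The difference of TrpA1 29C from a single control varied between the 4 wake-promoting lines, by an interaction in edgeR's quasi-likelihood test, for 24 of 48 P450 genes against the GAL4 control (36.7% of all genes) and for 22 against TrpA1 21C (41.6%). Without replicate 2 the counts were 0 and 1. Of the genes named here, Cyp305a1, Cyp6a13, Cyp12e1, Cyp9f2, Cyp28a5 and Cyp12b2 were called against both controls in 0 of the 4 lines, so these values are no measure of activation alone. Between 29 °C groups the smallest adjusted p-values were 0.000713 for Cyp305a1, 0.000852 for Cyp6a13, 0.00124 for Cyp12e1, 0.00192 for Cyp28a5, 0.00193 for Cyp9f2 and 0.00209 for Cyp6a23, and Cyp6w1 had 0.00243. Against 21 °C they were 0.00031 for Cyp6a13, 0.000883 for Cyp305a1, 0.00154 for Cyp12b2, 0.00178 for Cyp12e1, 0.0021 for Cyp28d1 and 0.00351 for Cyp9f2, and Cyp6w1 had 0.00442. The log2 change of Cyp9f2 against the GAL4 control was 0.97 ± 0.23 in R65H02, 0.68 ± 0.16 in R21H11, 0.06 ± 0.11 in HC and -0.12 ± 0.11 in R60F09. That of Cyp12e1 was 0.20 ± 0.17, 0.75 ± 0.21, -0.66 ± 0.17 and -0.26 ± 0.15. R65H02 and R21H11 were the lines whose neuron marker sum differed between TrpA1 29C and the GAL4 control without overlap, and its part in these differences was not tested.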

How the results depend on the processing

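Of 628 values for 62 named gene results under the alternatives, 508 kept direction and call, 118 lost the call and 2 reversed: on limma's log2 TPM scale Cyp28d1 changed by -0.0766 after 3 h and -0.0355 after 6 h of shaking. Counts of P450 genes called that moved by over 1.5 times are as follows, and the cause was not tested. Shares of all genes called under the alternatives are not given here, so a moved count is not read as particular to P450 genes. DESeq2 called 0 after 12 h of shaking, 2 for R21H11 at 21 °C, 2 for HC activation and 1 for R60F09 activation. Without the low-count filter 1 was called over time of day, and without ZT20 0. On log2 TPM, limma called 5 over time of day, 15 after 6 h and 7 after 12 h, 12 and 10 in the interactions against the GAL4 control and 21 °C, 7 for R60F09 at 21 °C, and 0 for R21H11 at 21 °C and for its GAL4 control. The length offset gave 1 over time of day, 0, 3 and 0 after 3, 6 and 12 h, 2 for R21H11 at 21 °C and 3 for HC activation.

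Same-numbered libraries over time of day correlated above 0.1 in 44 of 45 pairs (lowest 0.0531), and 18 of 18 libraries correlated best with their own number, a hint from the data and not from the design. In the other fits fewer same-numbered pairs passed 0.1: 8 of 18 for shaking, 4 of 9 in R85C10 and 36 of 198 in the 36-library fit. In the fits of the other lines it was 0 or 1 of 9. With the replicate block 11 were called over time of day and 0 for R21H11 at 21 °C. With the block and the length offset the counts were 7 over time of day, 0, 4 and 0 after 3, 6 and 12 h, 14 in the interaction against 21 °C, 2 for the R21H11 GAL4 control, 2 for HC activation and 5 for R85C10 activation.

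Leaving out a replicate number in turn gave 0 to 1 for time of day (lowest without 2), 0 to 2 for 3 h of shaking (lowest without 3), 5 to 9 for 6 h (lowest without 2), 1 to 3 for lines in GAL4 controls (lowest without 2), 3 to 8 for lines at 21 °C (lowest without 1 and 2), 0 to 20 for the interaction against the GAL4 control (lowest without 2), 1 to 21 for the interaction against 21 °C (lowest without 2), 0 to 1 for R21H11 at 21 °C (lowest without 1 and 3). For the lines it gave 1 to 6 for R21H11 GAL4 control (lowest without 1 and 3), 2 to 7 for R65H02 activation (lowest without 2), 3 to 4 for R65H02 at 21 °C (lowest without 2 and 3), 12 to 19 for R65H02 GAL4 control (lowest without 2), 0 to 1 for HC activation (lowest without 1 and 2), 5 to 6 for HC at 21 °C (lowest without 1), 0 to 1 for R60F09 activation (lowest without 1 and 2), 7 to 16 for R60F09 at 21 °C (lowest without 2), 2 to 4 for R85C10 activation (lowest without 1 and 3), 1 to 6 for R85C10 at 21 °C (lowest without 3), and 0 throughout for 12 h, R21H11 activation, HC GAL4 control, R60F09 GAL4 control, R85C10 GAL4 control. The fit of R60F09 without replicate 2 of its GAL4 control called 12 at 21 °C. Cyp4d2 was lower at 21 °C and called in 5 lines under DESeq2, RLE, no filter and both offset fits, in 4 under the block and limma, and in 3, 2 and 4 without replicate 1, 2 and 3. Of the genes given here, Cyp6a17, Cyp4aa1, Cyp18a1, Cyp6t3, Cyp4g1, Cyp311a1, Cyp4ac1, Cyp9b2 and Cyp4e2 had libraries with no count, which sets a floor on their values.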
